A study of Mus musculus with 6 samples.

Results

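The 40 genes described here encode the effector proteins and nucleic acid sensors that cells make in response to type I interferon. They were taken by symbol from a list without interferon receptors, STATs, IRFs or guanylate-binding proteins, and all 40 were found, each on a single row, among 23359 gene symbols. Polyadenylated RNA of mouse bone marrow was sequenced from 3 Gab2 -/- samples (NULL A, B and C) and 3 Gab2 +/+ samples (WT A, B and C). GAB2 is a docking protein that recruits SHP2 and PI 3-kinase to activated receptors and oncogenic tyrosine kinases, and the comparison asks which transcripts differ in its absence. The labels give no strain, age, culture or transforming agent and name no animals, so p-values reflect only how far these samples differ, possibly for technical reasons.

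Type I interferons bind a receptor of the chains IFNAR1 and IFNAR2, whose Janus kinases phosphorylate STAT proteins. With IRF9 these form the complex ISGF3, which binds the interferon-stimulated response element in promoters of antiviral genes. The products detect foreign nucleic acid, degrade or mark viral RNA, block entry and budding, and attach the ubiquitin-like protein ISG15. Many cells keep a low tonic level of these transcripts without infection.

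Values are FPKM, fragments per kilobase of transcript and per 1000000 mapped fragments, which allow levels to be compared between genes. Depth estimated from the steps among low values was about 23.3 to 68.4 M fragments (M, 1000000) in NULL and 17.9 to 54.4 M in WT. Gab2 read 0.123, 0.145 and 0.203 FPKM in NULL and 3.33, 3.10 and 2.43 FPKM in WT, a log2 change of -1.77 (SE 0.10, limma adjusted p = 1.83e-05). Gab2 averaged 1 FPKM or more, the limit for a test, only through its WT values. It therefore had to differ and this p-value is no support. An exact two-sided permutation test of its FPKM gave p = 0.1, the smallest value that test can reach here. Although the tissue is labelled bone marrow, the defining markers present were those of the B lineage. The summed level of 8 such genes was 2863 to 3015 FPKM in NULL and 1940 to 2146 FPKM in WT, with 6 of them called higher in NULL and Pax5 not called. No neutrophil, T and NK cell or erythroid marker exceeded 0.333 FPKM in any library, and Elane, S100a8 and S100a9 were listed at 0 in all. Ltf and Klrb1c, both in these lists, were separated with NULL higher. Of 8 monocyte and macrophage markers, Lyz2 averaged 2.85 ± 0.659 FPKM in NULL and 0.413 ± 0.154 FPKM in WT, and reached the filter only through its NULL values. Ccr2 averaged 0.0710 ± 0.00878 FPKM in NULL and 0.344 ± 0.149 FPKM in WT, and Mrc1 0.163 ± 0.0227 FPKM in NULL and 0.434 ± 0.229 FPKM in WT, both separated with NULL lower (SD, n = 3 each). The whole monocyte list summed to 2.70 to 3.92 FPKM in NULL and 1.05 to 1.48 FPKM in WT, most of it from Lyz2 in NULL, with Cd14 listed at 0 throughout. Of 7 plasmacytoid dendritic cell markers, Tcf4, also a gene of B-cell precursors, rose to 11.5 ± 0.711 FPKM in NULL, against 7.57 ± 0.514 FPKM in WT (SD, n = 3 each). The other 6 stayed at or below 0.133 FPKM. Siglech among them was separated with NULL higher, at means of 0.0645 FPKM in NULL and 0.00164 FPKM in WT. Of the 6 endothelial and stromal markers, Pecam1, also made by blood cells, rose to 24.9 ± 0.467 FPKM in NULL, against 11.1 ± 0.668 FPKM in WT (SD, n = 3 each), while Col1a1 and Col3a1 were listed at 0. Kdr was separated with NULL higher, at means of 0.0635 FPKM in NULL and 0.00344 FPKM in WT. The plasmacytoid list summed to 10.9 to 12.2 FPKM in NULL and 7.11 to 8.08 FPKM in WT, most of it from Tcf4. The part of any of these cell types in the results was not tested. In bulk RNA, fewer cells of a type and less RNA per cell cannot be told apart.

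The element that ISGF3 recognises was searched as GAAA, any 2 bases and a second GAAA on both strands of RefSeq promoters (GRCm38.p6, 250 bases before to 50 after the start). A promoter was found for 30 of the 40 genes, and 12 of the 30 (40.0%) held the motif, against 3.99% of all 27025 genes with a promoter in the table. Matches can overlap, as in the run of 3 in Isg15. The 7 genes with a match before the start show how the element sits in genes that rose, fell or were too low to test; their windows read 5′ to 3′ on the strand of the gene, with the matches in capitals.
Isg15 at chr4:156200850-156200921, minus strand: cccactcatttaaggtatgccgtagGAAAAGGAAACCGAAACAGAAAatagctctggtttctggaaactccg
Ifit1 at chr19:34640760-34640838, plus strand: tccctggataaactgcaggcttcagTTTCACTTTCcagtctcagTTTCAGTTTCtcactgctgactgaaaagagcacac
Ifit3 at chr19:34583348-34583441, plus strand: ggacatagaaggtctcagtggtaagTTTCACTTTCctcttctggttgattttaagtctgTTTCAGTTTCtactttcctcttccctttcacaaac
Oas1a at chr5:120907526-120907570, minus strand: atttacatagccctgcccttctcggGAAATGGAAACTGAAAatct
Oas3 at chr5:120777700-120777759, minus strand: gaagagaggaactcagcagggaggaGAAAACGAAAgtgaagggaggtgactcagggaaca
Rsad2 at chr12:26456538-26456597, minus strand: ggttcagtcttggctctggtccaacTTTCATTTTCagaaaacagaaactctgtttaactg
Bst2 at chr8:71537562-71537627, minus strand: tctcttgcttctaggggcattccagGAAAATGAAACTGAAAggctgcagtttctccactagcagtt
Ifit1, Ifit3 and Rsad2 carry the motif as its reverse complement. In Ddx58, Eif2ak2, Ifih1, Ifitm3 and Trim21 the match lay within the 50 bases after the start. The RefSeq starts of Bst2, Ifit3 and Oas1a are not those of a GENCODE transcript. A match describes letters and is no evidence of binding.

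Most of the interferon effector genes were higher in NULL. The 3 NULL values lay above all 3 WT values for 33 of the 40 genes and below them for 3, and the groups overlapped for 4. Across the 9916 genes that averaged 1 FPKM or more the groups were separated in these directions for 26.0% and 45.1%. For 3092 genes with a mean from 0.05 to under 1 FPKM the shares were 32.1% and 14.5%. The level of the 40 genes was low throughout, with a median of 4.24 FPKM in NULL and 2.15 FPKM in WT and no library value above 22.4 FPKM.

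**Figure D1:**
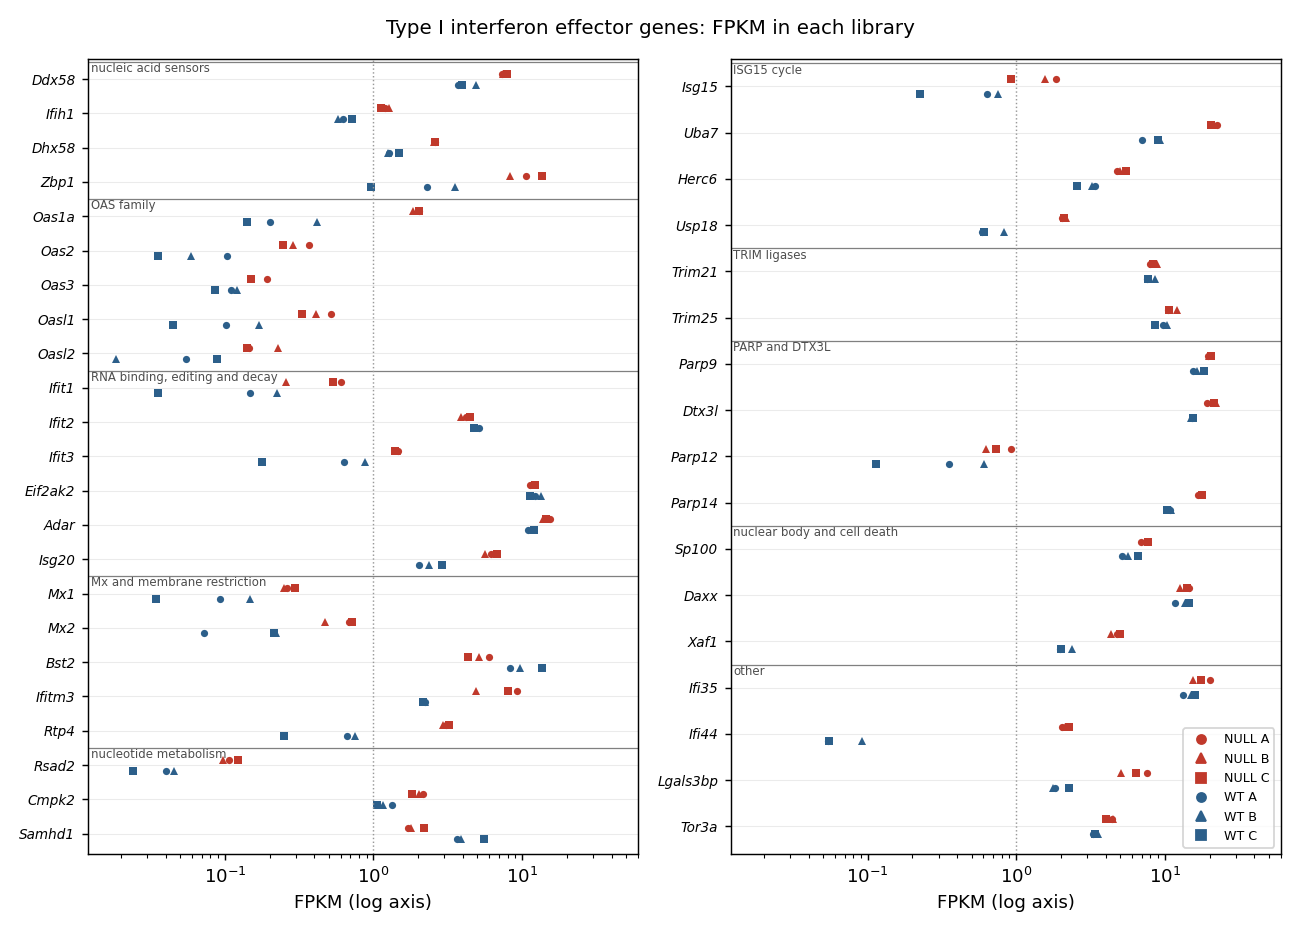
FPKM (log axis) of the 40 interferon effector genes in each of the 3 NULL (upper, red) and 3 WT (lower, blue) libraries, grouped by role; the dotted line marks 1 FPKM. For 33 genes all red points lie to the right of all blue points, and for Ifit2, Bst2 and Samhd1 all lie to the left.

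Tests were made with limma on log2(FPKM + 1) for the 28 genes that averaged 1 FPKM or more, with p-values adjusted over all 9916 genes tested. Of these, 20 rose in NULL, 3 fell and 5 were not called, where 23.3% of all tested genes rose and 42.0% fell. Oas1a, Rtp4, Ifi44 and Usp18 had a WT mean under 1 FPKM and reached the filter through their NULL values, so they had to differ. Of the 24 genes with a WT mean of at least 1 FPKM, 16 rose. The share that rose among all genes with such a WT mean was not computed, so this count has no like background. The median log2 change of the 28 was 0.52, beside -0.13 for all tested genes. Both medians moved up with median-of-ratios rescaling, to 0.65 and 0.0098, and then 23 genes rose and 2 fell, where 31.7% of all tested genes rose and 32.7% fell. After quantile normalization 23 rose and 3 fell (28.5% and 33.1% of all tested genes). With every library set to the same total 17 rose and 2 fell (20.4% and 10.1% of all tested genes).

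**Figure D2:**
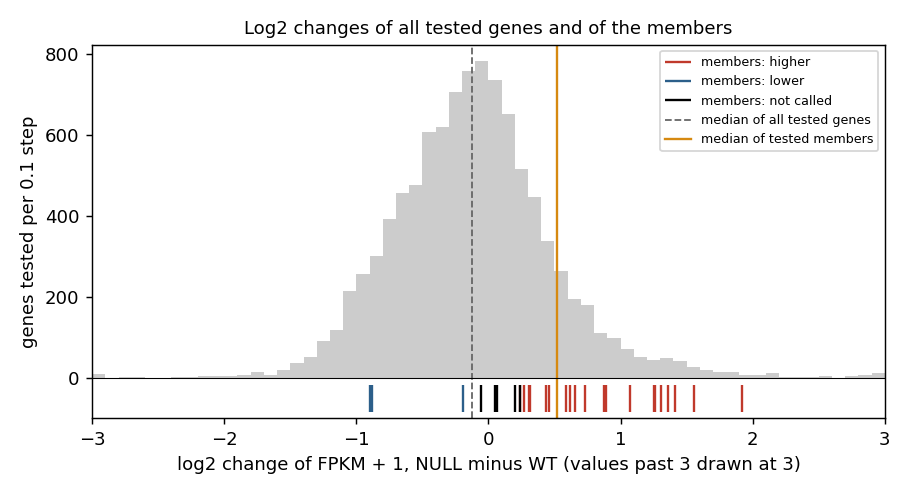
Histogram of the log2 change of FPKM + 1 (NULL minus WT) for the 9916 genes tested, with a tick below the axis for each of the 28 tested interferon effector genes (members in the legend; values past 3 are drawn at 3). The median of the effector genes stands at 0.52 and that of all tested genes at -0.13.

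All 4 sensors of foreign nucleic acid were separated with NULL higher, and the 3 that were tested rose. Ddx58 encodes RIG-I, which binds viral RNA with a free triphosphate, and lies on chromosome 4 from 40203773 to 40239828 (GRCm38). It read 7.35, 7.38 and 7.90 FPKM in NULL and 3.72, 4.86 and 3.92 FPKM in WT, a log2 change of 0.73 (SE 0.09, limma adjusted p = 0.000311). Dhx58 encodes LGP2, a relative of RIG-I without the signalling domain, and read 2.59, 2.56 and 2.58 FPKM in NULL and 1.27, 1.25 and 1.48 FPKM in WT (log2 change 0.62). The libraries of each group stood close together for both genes, and the groups did not overlap. Ifih1, the gene of MDA5, a sensor of long double-stranded RNA, read 1.19, 1.27 and 1.12 FPKM in NULL and 0.621, 0.578 and 0.719 FPKM in WT. Its mean missed the filter. Zbp1, a sensor of Z-form nucleic acid that can trigger necroptosis, read 10.7, 8.32 and 13.6 FPKM in NULL and 2.29, 3.51 and 0.957 FPKM in WT. Its log2 change of 1.92 (SE 0.30, limma adjusted p = 0.000788) was the largest of the 28 on this scale, and its SE was also the largest.

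The OAS family makes oligoadenylates that set off the decay of RNA, except for OASL1, which lacks this activity. All 5 were low and were higher in each NULL library than in any WT library. Oas1a, on chromosome 5 from 120896256 to 120907521, read 2.03, 1.85 and 2.03 FPKM in NULL and 0.201, 0.417 and 0.140 FPKM in WT. The ratio of its means was 7.79, and the log2 change 1.25 (SE 0.10, limma adjusted p = 4.96e-05). Oas1a reached the filter through its NULL values, so it had to differ and this p-value is no support. Its WT values correspond to roughly 5 to 19 fragments per library. Oas1a belongs to a cluster of close copies, so its reads cannot be assigned with certainty. Oas2 averaged 0.301 ± 0.0626 FPKM in NULL and 0.0661 ± 0.0343 FPKM in WT, and Oasl1 0.420 ± 0.0925 FPKM in NULL and 0.105 ± 0.0622 FPKM in WT (SD, n = 3 each). Oas3 and Oasl2 stayed at or below 0.229 FPKM in every library.

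The IFIT genes, neighbours on chromosome 19 between 34550694 and 34650009, did not move together. IFIT proteins bind viral RNA that lacks the host's cap methylation. Ifit1 read 0.603, 0.258 and 0.532 FPKM in NULL and 0.147, 0.223 and 0.0355 FPKM in WT. Ifit3 read 1.46, 1.44 and 1.40 FPKM in NULL and 0.632, 0.874 and 0.179 FPKM in WT, and it has a close copy, Ifit3b. Both were separated with NULL higher, and both have matches to the motif upstream. Ifit2, the most abundant of the 3 in either group, read 4.22, 3.89 and 4.43 FPKM in NULL and 5.10, 4.86 and 4.78 FPKM in WT, with NULL lower (log2 change -0.19, SE 0.07, limma adjusted p = 0.0418). That call was lost after median-of-ratios rescaling (log2 change -0.062, limma adjusted p = 0.460) and the sign turned after rescaling to a common total. It was also lost without NULL A, NULL B, WT A or WT B (limma adjusted p between 0.0755 and 0.130). Neither of the Ifit2 promoters in the table held the motif.

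Among other RNA-directed effectors, Isg20, an exonuclease that degrades RNA, rose in NULL. It read 6.15, 5.62 and 6.75 FPKM in NULL and 2.02, 2.38 and 2.88 FPKM in WT (log2 change 1.07, SE 0.11, limma adjusted p = 0.000109). Adar, which edits adenosine in double-stranded RNA and keeps MDA5 from detecting the cell's own transcripts, read 15.4, 13.9 and 14.4 FPKM in NULL and 10.9, 11.9 and 12.01 FPKM in WT (log2 change 0.31). Its call was lost after rescaling to a common total (limma adjusted p = 0.0699). Eif2ak2, the gene of the kinase PKR that stops translation on double-stranded RNA, overlapped between the groups at 11.7 ± 0.424 FPKM in NULL and 12.3 ± 1.01 FPKM in WT (SD, n = 3 each; limma adjusted p = 0.510). Its small negative change of -0.059 turned positive under all 3 rescalings, without a call.

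Genes that act at membranes went in both directions. Ifitm3, which hinders fusion of viruses with endosomes, lies on chromosome 7 from 141009586 to 141010770 and read 9.27, 4.93 and 8.01 FPKM in NULL and 2.23, 2.21 and 2.14 FPKM in WT. The WT libraries were nearly equal, and NULL B was the lowest NULL library but still above them (log2 change 1.36, SE 0.18, limma adjusted p = 0.000426). Rtp4, a chaperone of G-protein-coupled receptors with antiviral activity, read 3.10, 2.95 and 3.24 FPKM in NULL and 0.661, 0.747 and 0.250 FPKM in WT (log2 change 1.41). It reached the filter through its NULL values, so it had to differ. Bst2, or tetherin, holds budding virions at the cell surface and lies on chromosome 8 from 71534255 to 71537456. It fell to 5.99, 5.09 and 4.34 FPKM in NULL, against 8.32, 9.69 and 13.7 FPKM in WT (log2 change -0.90, SE 0.17, limma adjusted p = 0.00251). WT C was the highest library, and without it the ratio of the means, NULL over WT, was 0.571 in place of 0.487. The Bst2 promoter holds the motif, like that of Isg15. Mx1 and Mx2, dynamin-like GTPases of which Mx2 is annotated as a polymorphic pseudogene, stayed at or below 0.720 FPKM and were separated with NULL higher. Mx2 averaged 0.627 ± 0.135 FPKM in NULL and 0.169 ± 0.0834 FPKM in WT (SD, n = 3 each).

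Of the enzymes of nucleotide metabolism, Samhd1, which hydrolyses deoxynucleotides and thereby starves reverse transcription, fell in NULL. Its values were 1.70, 1.80 and 2.17 FPKM in NULL and 3.66, 3.89 and 5.54 FPKM in WT (log2 change -0.88, SE 0.14, limma adjusted p = 0.000874). WT C was again the highest, and without it the ratio of the means was 0.501 in place of 0.434. Rsad2, or viperin, makes a chain-terminating nucleotide from the product of the kinase encoded by its neighbour Cmpk2. The gene pair lies on chromosome 12, on opposite strands and 12751 bases apart. Cmpk2 rose to 2.14, 2.02 and 1.82 FPKM in NULL, against 1.32, 1.17 and 1.06 FPKM in WT (log2 change 0.46, limma adjusted p = 0.00202). Rsad2 was the lowest of the 40 genes, with 0.107, 0.0976 and 0.123 FPKM in NULL and 0.0402, 0.0456 and 0.0242 FPKM in WT, or roughly 2 to 30 fragments per library.

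All 4 genes of the ISG15 cycle were separated with NULL higher, and the 3 that were tested rose. Isg15 itself read 1.84, 1.55 and 0.918 FPKM in NULL and 0.638, 0.758 and 0.227 FPKM in WT, separated with NULL higher by a ratio of means of 2.66. Uba7, the enzyme that activates ISG15 for transfer, had the highest NULL mean of the 40 genes, narrowly above Dtx3l (21.4 and 21.0 FPKM). In NULL B and NULL C Dtx3l read higher than Uba7. Uba7 lies on chromosome 9 from 107975505 to 107984060 and read 22.4, 21.2 and 20.6 FPKM in NULL and 6.98, 9.30 and 8.96 FPKM in WT (log2 change 1.26, SE 0.10, limma adjusted p = 5.03e-05). Herc6, the ligase of the mouse, read 4.75, 5.001 and 5.47 FPKM in NULL and 3.41, 3.21 and 2.56 FPKM in WT (log2 change 0.59). Usp18 removes ISG15 and also blocks the interferon receptor as a feedback inhibitor, and read 2.03, 2.16 and 2.10 FPKM in NULL and 0.590, 0.826 and 0.603 FPKM in WT (log2 change 0.89). Usp18 reached the filter through its NULL values, so it had to differ. Uba7 exceeded Isg15 in every library.

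Trim25, the ubiquitin ligase that acts on RIG-I, and Trim21, an antibody receptor of the cytosol, were not called. Trim25 averaged 11.1 ± 0.861 FPKM in NULL and 9.53 ± 0.918 FPKM in WT, and Trim21 8.36 ± 0.445 FPKM in NULL and 7.96 ± 0.544 FPKM in WT (SD, n = 3 each; limma adjusted p = 0.0807 and 0.465). After median-of-ratios rescaling both were called higher (limma adjusted p = 0.0148 and 0.0495), and after quantile normalization Trim25 was (limma adjusted p = 0.0256).

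Parp14, Parp9 and Dtx3l, ADP-ribosyltransferases and a partner ligase encoded close together on chromosome 16, all rose. Parp14 read 16.8, 17.9 and 17.8 FPKM in NULL and 10.9, 11.03 and 10.3 FPKM in WT (log2 change 0.66, SE 0.06, limma adjusted p = 7.97e-05). Dtx3l, which forms a complex with PARP9, read 19.3, 22.2 and 21.4 FPKM in NULL and 15.2, 15.1 and 15.5 FPKM in WT (log2 change 0.43). Parp9 read 19.4, 19.9 and 20.5 FPKM in NULL and 15.5, 16.6 and 18.3 FPKM in WT (log2 change 0.24, limma adjusted p = 0.0217). The Parp9 call was lost without NULL C, WT A or WT B (limma adjusted p between 0.0684 and 0.0814) and with libraries set to the same total (limma adjusted p = 0.126). Parp9 and Dtx3l overlap by 682 bases on opposite strands, and the sources used here do not say whether reads were counted by strand, so their reads may not be separable. Parp12, on chromosome 6, missed the filter and was narrowly separated, with 0.917, 0.624 and 0.728 FPKM in NULL and 0.350, 0.611 and 0.114 FPKM in WT.

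Of the genes for nuclear bodies and cell death, Xaf1, an antagonist of the caspase inhibitor XIAP, rose to 4.75, 4.37 and 5.03 FPKM in NULL, against 1.96, 2.38 and 1.99 FPKM in WT (log2 change 0.88, limma adjusted p = 8.51e-05). Sp100, a nuclear body protein, read 6.86, 7.68 and 7.74 FPKM in NULL and 5.12, 5.66 and 6.58 FPKM in WT (log2 change 0.32, limma adjusted p = 0.0189). The Sp100 call was lost without NULL B, NULL C, WT A or WT B (limma adjusted p between 0.0574 and 0.0674). Daxx, a histone chaperone of the same bodies, was not called at 13.8 ± 0.934 FPKM in NULL and 13.3 ± 1.40 FPKM in WT (SD, n = 3 each; limma adjusted p = 0.642), except after quantile normalization (limma adjusted p = 0.0434).

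The highest ratio belonged to Ifi44, an interferon-induced cytoplasmic protein encoded on chromosome 3 from 151730922 to 151749960. It read 2.03, 2.11 and 2.27 FPKM in NULL and 0.0538, 0.0914 and 0.0552 FPKM in WT, a ratio of means of 32.0. The lowest NULL value was 22.2 times the highest WT value, and the WT values correspond to few fragments. The log2 change was 1.56 (SE 0.08, limma adjusted p = 1.24e-05). Ifi44 reached the filter through its NULL values, so it had to differ and this p-value is no support. Lgals3bp, a secreted glycoprotein that binds galectins, read 7.62, 5.04 and 6.38 FPKM in NULL and 1.82, 1.76 and 2.28 FPKM in WT, a ratio of means of 3.25 (limma adjusted p = 0.000124). Tor3a, an ATPase of the endoplasmic reticulum, read 4.41, 4.49 and 4.03 FPKM in NULL and 3.28, 3.55 and 3.40 FPKM in WT (log2 change 0.27), with the call lost after rescaling to a common total (limma adjusted p = 0.0564). Ifi35 overlapped between the groups at 17.7 ± 2.28 FPKM in NULL and 14.8 ± 1.35 FPKM in WT (SD, n = 3 each; limma adjusted p = 0.0800), and was called higher without NULL B (limma adjusted p = 0.0318) and after median-of-ratios rescaling or quantile normalization (limma adjusted p = 0.00788 and 0.00481).

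**Figure D3:**
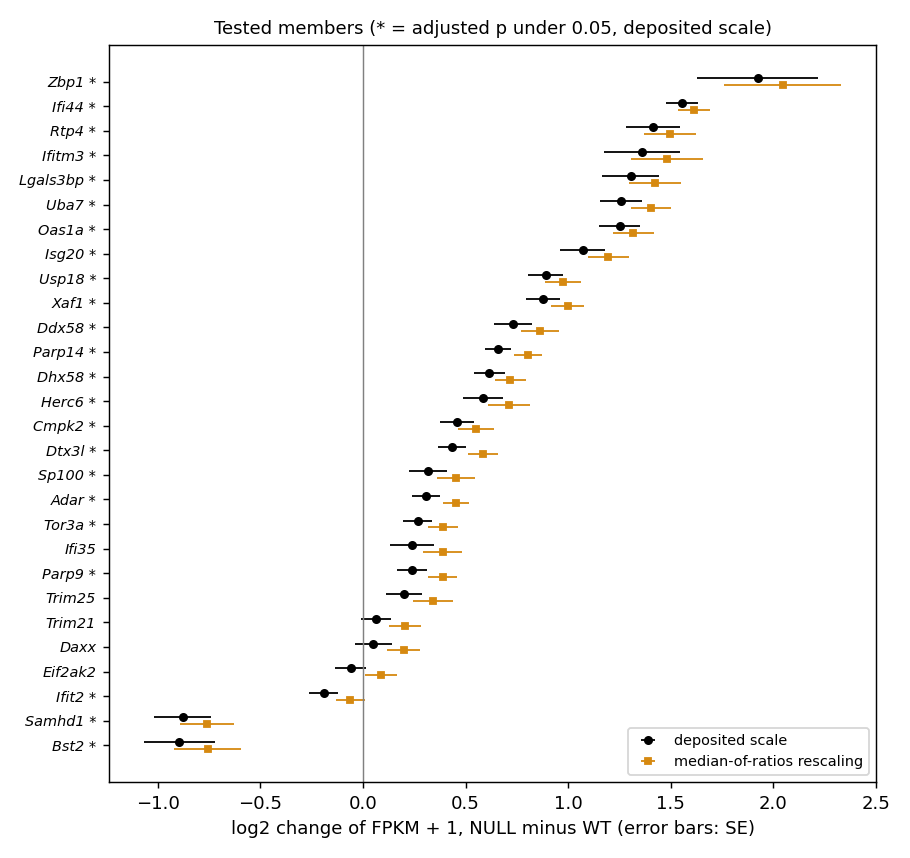
Log2 change of FPKM + 1 (NULL minus WT, bars: SE) of the 28 tested genes on the deposited scale (black) and after median-of-ratios rescaling (orange), in order of size, with an asterisk where the adjusted p was under 0.05 on the deposited scale. The changes run from 1.92 for Zbp1 to -0.90 for Bst2 on the deposited scale, and Eif2ak2 changes sign between the scales.

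The 12 genes below the filter had ratios from 1.54 (Oas3) to 4.56 (Oas2), and all 12 were separated with NULL higher. Without the filter, limma called 11 of these 12 higher among 16712 genes, of which 18.2% were called higher. The exception was Parp12 (limma adjusted p = 0.0788). With a pseudocount of 0.1 FPKM in addition, chosen after seeing the data, 9 of the 12 were called higher, beside 18.2% of 16712 genes. Oas3, Ifit3 and Parp12 were not called (limma adjusted p = 0.0564, 0.0505 and 0.105). As most of these values rest on few fragments, their ratios are imprecise.

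WT C stood apart from WT A and B for part of the genes. In 10 of the 40 genes WT C read at most 0.5 times the mean of WT A and B, namely Zbp1, Oas1a, Oas2, Oasl1, Ifit1, Ifit3, Mx1, Rtp4, Isg15 and Parp12. Among all tested genes 0.958% met this limit, and among genes with a mean from 0.05 to under 1 FPKM 17.1%. The estimated depth was about 22.5 M fragments in WT C, 17.9 M in WT B and 54.4 M in WT A. The FPKM of all genes summed to 581658 in WT C and to between 314192 and 420144 in the other 5 libraries. The part of depth and of this total in the pattern was not tested. Without WT C the ratio of means was 3.74 in place of 4.82 for Zbp1, 6.37 in place of 7.79 for Oas1a, 4.40 in place of 5.60 for Rtp4 and 2.06 in place of 2.66 for Isg15. The recombinase gene Rag1 was also low in WT C, with 6.93, 7.01 and 7.11 FPKM in NULL and 1.25, 1.55 and 0.255 FPKM in WT, and its part in the pattern was not tested.

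The genes for the interferons themselves were nearly silent in both groups. Of 19 type I, type III and gamma interferon genes with a row, 14 were listed at 0 in all 6 libraries, Ifnb1 and Ifng among them, and none exceeded 0.438 FPKM. The remaining 36 pathway genes with a row comprised 33 that were tested, of which 20 rose and 6 fell, beside 23.3% and 42.0% of all tested genes. Both receptor chains were present, Ifnar1 rising to 15.0 ± 0.566 FPKM in NULL, against 9.12 ± 0.803 FPKM in WT, and Ifnar2 without a call at 20.1 ± 0.506 FPKM in NULL and 18.4 ± 1.28 FPKM in WT (SD, n = 3 each). Stat2, a subunit of ISGF3, rose and averaged 7.73 ± 0.490 FPKM in NULL and 4.52 ± 0.383 FPKM in WT (SD, n = 3 each). Irf9, the DNA-binding subunit of the same complex, rose and read 14.8, 13.7 and 14.1 FPKM in NULL and 5.88, 6.44 and 6.15 FPKM in WT (log2 change 1.09, SE 0.06, limma adjusted p = 1.83e-05). Irf7, the factor that amplifies interferon production, read 2.04, 1.54 and 1.76 FPKM in NULL and 0.502, 0.483 and 0.275 FPKM in WT. It reached the filter through its NULL values, so it had to differ, and it is 1 of the 20 pathway genes counted as higher.

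**Figure D4:**
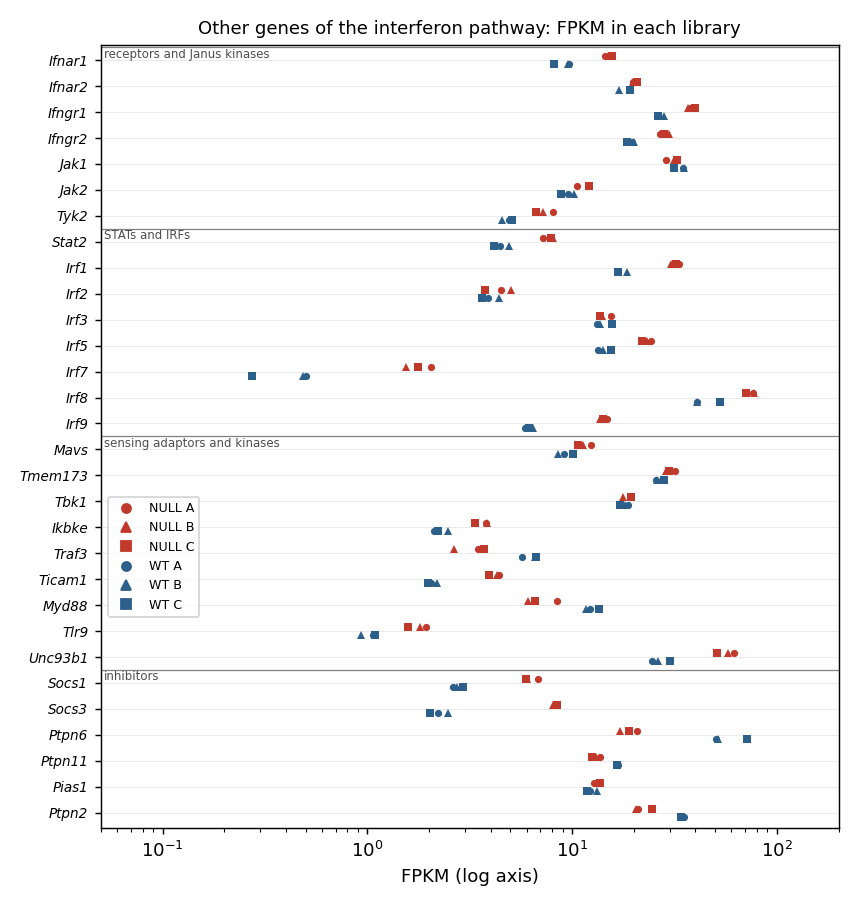
FPKM (log axis) of tested receptors, kinases, STATs, IRFs, adaptors and inhibitors outside the 40 genes in each of the 3 NULL (upper, red) and 3 WT (lower, blue) libraries. Red points lie to the right for Stat2, Irf9 and Socs1 and to the left for Ptpn6, Ptpn2, Myd88 and Traf3.

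The other IRFs Irf1, Irf5 and Irf8 rose to 31.9, 23.1 and 74.7 FPKM on average in NULL, against 17.3, 14.4 and 44.7 FPKM in WT (log2 changes 0.85, 0.65 and 0.74), and Irf2 and Irf3 were not called (limma adjusted p = 0.314 and 0.855). Ifngr1 and Ifngr2, the receptor of interferon gamma, rose by 0.49 and 0.52 and the kinase Tyk2 by 0.50. Jak2 rose by 0.26, a call lost without NULL B, NULL C, WT A or WT C (limma adjusted p between 0.0618 and 0.0879) and on a common total (limma adjusted p = 0.0954). Jak1 was not called (limma adjusted p = 0.179). Among genes of the sensing pathways, the kinase Ikbke, the adaptor Ticam1, the sensor Tlr9 and its chaperone Unc93b1 rose by 0.52, 0.76, 0.45 and 1.05. Mavs, through which RIG-I and MDA5 signal, rose by 0.28, a call lost without NULL A, WT A or WT B (limma adjusted p between 0.0600 and 0.0802) and on a common total (limma adjusted p = 0.0826). Tmem173, the gene of STING, and Tbk1 were not called (limma adjusted p = 0.0585 and 0.477), and Mb21d1, the gene of cGAS, stayed at or below 0.127 FPKM. Tlr3 and Tlr7 were also below the filter. Ifnar2, Tmem173, Tbk1 and the inhibitor Pias1 were called higher after median-of-ratios rescaling (limma adjusted p = 0.00941, 0.00233, 0.0244 and 0.0176). The adaptors Myd88 and Traf3 had log2 changes of -0.76 and -0.78 and both fell. The Myd88 call was lost after rescaling to a common total (limma adjusted p = 0.0961).

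Inhibitors of the pathway changed in both directions. Socs1 and Socs3, feedback inhibitors of Janus kinases, averaged 6.26 ± 0.463 and 8.29 ± 0.186 FPKM in NULL and 2.76 ± 0.159 and 2.24 ± 0.229 FPKM in WT (SD, n = 3 each). The phosphatase genes Ptpn6, Ptpn2 and Ptpn11 fell by 1.55, 0.64 and 0.33 on the log2 scale. Ptpn6, which encodes SHP1, read 17.1 to 20.7 FPKM in NULL and 50.5, 51.6 and 71.5 FPKM in WT, with WT C the highest. The Ptpn11 call was lost after quantile normalization and on a common total (limma adjusted p = 0.0753 and 0.877). The Ptpn2 call was also lost on a common total (limma adjusted p = 0.307). Pias1 was not called (limma adjusted p = 0.253), and Abce1, a ribosome recycling factor, fell to 59.0 ± 4.42 FPKM in NULL, against 112 ± 5.29 FPKM in WT (SD, n = 3 each). The Abce1 call was lost on a common total (limma adjusted p = 0.0563).

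Genes with the motif rose, fell or were not called, and so did genes without it. Few genes with the motif were called, and a link of motif and direction was not tested. Of the 12 genes whose promoter held it, Ddx58, Ifitm3 and Oas1a rose, Bst2 fell, Eif2ak2 and Trim21 were not called, and 6 were below the filter, all 6 separated with NULL higher. Of the 18 with a promoter in the table and no match, 10 rose, 2 fell, 3 were not called and 3 were below the filter. The other 10 genes (Rtp4, Parp14, Mx1, Dhx58, Tor3a, Parp9, Mx2, Oas2, Zbp1 and Usp18) were not analysed here for the motif.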

How the data were processed

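The deposited values are FPKM per gene symbol, made by the authors from stranded paired-end libraries per the labels' protocols; Bowtie and Cufflinks, and mm10 or GRCm38 as build, stand per the submitters' processing notes, without versions or roles. Annotation, filters and scaling were not stated there. The series table was used, whose 23848 rows differed from the library tables in 0 values; 489 rows with a repeated symbol were dropped in favour of the row with the highest mean. Limma 3.58.1 (R 4.3.3) was fitted to log2(FPKM + 1) of genes averaging 1 FPKM or more, with trended empirical Bayes variances, Benjamini-Hochberg adjustment and a threshold of 0.05. Fold changes on this scale understate weak genes. Depth per library came from the commonest step among low FPKM times transcript length less 150 bp in 3554 genes with 1 transcript; it is approximate and supports no counting interval. Gene positions are from GENCODE vM21 and promoters from RefSeq. Other pseudocounts, filters, rescalings, no variance trend, a replicate block and leaving out each library were tried; 1 alternative, a lower pseudocount with no filter, was chosen after seeing the data. Members, roles, pathway and marker lists were chosen with earlier results of these data known. Every member is given; pathway genes are named by call or smallest p. The fit was run on simulated data with independent noise and far fewer changed genes than were called here. That run did not test the scaling of the libraries. Some genes of the pathway and marker lists are counted but not reported here by name.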

Additional observations from a re-analysis of the deposited data

How the results depend on the processing

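Of the alternatives tried, the filter had the most effect on the effector genes called. At a mean of 5 FPKM or more, 8 of the 14 effector genes tested were higher and 1 lower, beside 1364 (19.3%) higher and 3495 (49.5%) lower of all 7067 genes tested. Zbp1 and Ddx58, both among the 8, had WT means of 2.25 and 4.17 FPKM. They reached this filter through their NULL values, so they had to differ. Without a filter 31 of 40 were higher and 2 lower, beside 18.2% and 25.4% of 16712 genes. The median log2 change of 0.52 became 0.71 and 0.29 with pseudocounts of 0.1 and 5 FPKM, 0.40 without the filter, 0.27 with the filter at 5 FPKM, 0.65 after median-of-ratios rescaling, 0.75 after rescaling to a common total, and 0.84 with a pseudocount of 0.1 FPKM and no filter, the last chosen after seeing the data. The median of all tested genes also moved, from -0.13 to 0.0098 after median-of-ratios rescaling and to 0.11 on a common total. Rescaling to a common total left 2 pathway genes and 1003 of all genes lower. It turned the change of Ifit2 to 0.037, that of Eif2ak2 to 0.20 and that of Jak1 to 0.15. Median-of-ratios rescaling and quantile normalization turned Eif2ak2 to 0.087 and 0.086 and Jak1 to 0.028 and 0.18. The cause was not tested. Leaving out each library gave 18 to 20 effector genes higher and 2 to 3 lower. In each of these fits more of all genes were called lower than higher, as in the main fit (2311 higher and 4168 lower). The log2 changes then lay between -0.031 and 0.11 for Daxx and between -0.030 and 0.089 for Irf3, neither of them called. Of the 20 genes called higher, 16 were called under all 3 rescalings and without each library, the exceptions being Adar, Parp9, Sp100 and Tor3a. The 16 include Oas1a, Rtp4, Ifi44 and Usp18, which reached the filter through their NULL values and had to differ. The share of all tested genes called in all of these fits was not computed. With the replicate block 20 effector genes were higher and 2 lower, and again more of all genes were called lower than higher. Ifit2 lost its call with the block (limma adjusted p = 0.105), as did Jak2 and Mavs (0.0508 each). Same-letter libraries shared only a letter, with deviations from the group means correlated by 0.073 (A), 0.355 (B) and 0.133 (C); each library correlated best with its own letter in the other group, a hint from the data and not from the design. Depth limits the 12 genes under 1 FPKM, several with fewer than 10 fragments in a WT library.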
